A study of Mus musculus with 15 samples.

Results

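Testes that had received any of 4 lentiviruses were compared with the testes of the group labelled Con, to give what the 4 viruses shared against Con. The 12 injected libraries, pooled as one group, were set against the 3 Con libraries, and a gene was singled out when all 12 injected values lay on one side of all 3 Con values. All 15 libraries of the series entered. Of the 23510 gene IDs in the table, 14514 had a mean of 1 FPKM or more over the 15 libraries and were compared. A gene with a Con mean under 1 FPKM could pass this filter only with a higher injected mean, which favoured rises among such genes. FPKM values count sequenced fragments after correction for transcript length and for library size, so levels of long and short genes and of deep and shallow libraries share one scale. The difference for a gene was taken as mean log2(FPKM + 1) of the injected libraries minus that of Con, a scale that understates changes of genes with low values. Of the 14514 genes, 2578 met the rule, 907 with all 12 injected values above Con and 1671 with all 12 below.

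All animals were mice of the outbred ICR strain, and the tissue is given as testis, although sperm is the material named in the labels' extraction protocol. The groups M1, M3 and M5 carry the genotype knockdown and received lentivirus against a muscarinic acetylcholine receptor, the one each group is named after, as a mixture of 3 short hairpin RNAs per the study's methods. MNC received the vector control of that lentivirus and carries the genotype control, as Con does. Per the methods, males of 5 weeks were injected into the testis and 1 testis per mouse was taken for RNA 10 days later. The labels give Con no injection and the methods describe no Con group for these libraries, so whether Con testes were untouched or mock injected, and at what age they were taken, is not stated in the sources used here. Injection, virus, hairpin expression, age and any difference in collection therefore cannot be told apart in this comparison. Each library is labelled as a separate sample, and nothing says that the 3 of a group came from separate mice, so the p-values measure the spread between these samples.

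The testis is an organ in which immune reactions are kept low and germ cells develop behind a barrier of Sertoli cells. Interferons, which cells and lymphocytes release on viral infection, act through receptors on the cell surface. They switch on genes for antiviral proteins, for GTPases that attack intracellular pathogens, and for the class I and class II major histocompatibility molecules that present peptides to T cells. Interferon-gamma, from T cells and natural killer cells, is the main inducer of the class II genes, of several GTPases and of the chemokine Cxcl9.

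The depth of the 15 libraries could not be settled here, since reads were not used. The lowest steps between FPKM values gave relative depths of 0.995 to 1.01, from 9 to 46 genes per library. Only values within 6% of the lowest value above 0 of a gene entered, so larger differences in depth could not show. Summed FPKM was 470243 to 483232 in Con and 496090 to 513817 in the injected libraries, so that the sums did not overlap. Testis genes were high in every library, with the protamine gene Prm1 at 2951 FPKM or more and the germ cell helicase gene Ddx4 at 190 FPKM or more. The targeted receptor genes lay far below the filter. Chrm1 was at 0.06 to 0.17 FPKM in the injected and 0.09 to 0.15 in the Con libraries, Chrm3 at 0.01 to 0.11 and 0.04 to 0.05, and Chrm5 at 0.2 to 0.43 and 0.19 to 0.21. None passed an exact permutation test of the 12 injected against the 3 Con libraries (two-sided, 455 splits, exact p = 0.642, 0.91 and 0.0813). Replicate 3 of M5 stood apart among the injected libraries, with the lowest weight (0.18) when limma estimated the quality of each library. Genes of the epididymis, the duct beside the testis, were highest in the Con libraries, and the M3 libraries stood above the other injected ones, as described with those genes.

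By limma's moderated test with Benjamini-Hochberg adjustment over all genes tested, 3962 genes (27.3%) differed between the 12 injected and the 3 Con libraries at an adjusted p under 0.05, and these are the genes called here. Of them 1423 (9.8%) were higher and 2539 (17.5%) were lower in the injected testes. The rule on the order of values took 17.8% of all genes, 6.25% above and 11.5% below. Both criteria were met by 2426 genes (16.7%), 871 higher (6%) and 1555 lower (10.7%). A further 36 genes above and 116 below Con were not called. The median difference over all genes was -0.0994. Centring each library on its median, which moved that median to 0.00612, turned the split of the calls to 1878 higher and 562 lower. Quantile normalization gave 1487 higher and 1631 lower, and removal of a trend with GC content 1617 higher and 1919 lower. Leaving out 1 Con library left 2024 calls without replicate 1, 1836 without replicate 2 and 2618 without replicate 3.

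Among the genes that passed the filter, those that rose did so by more than those that fell. The filter favours this, since 12 of the 15 libraries behind its mean were injected. A gene near 0 in Con could pass it, while Trim25, at 1.96 to 2.36 FPKM in Con and 0 to 0.14 in 11 injected libraries, did not. How far the filter shaped the counts below was not tested. The 871 higher genes had a median difference of 0.462 on the log2 scale, and 96 of them differed by 1 or more. The 1555 lower genes had a median absolute difference of 0.287, and 11 differed by 1 or more. The distance between the lowest injected and the highest Con value reached 1.5 log2 units among the higher genes, and 41 genes had a distance of 0.5 or more. Among the lower genes 2 had such a distance. At the limit of the rule, Tra2a had its 2 sides 0.000358 log2 units apart, and Pira1 was left out because an injected and a Con value were equal. At the limit of the filter, Dgkq had a mean of 1 FPKM and Selenbp2, at 0.999 FPKM, was left out.

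**Figure D1:**
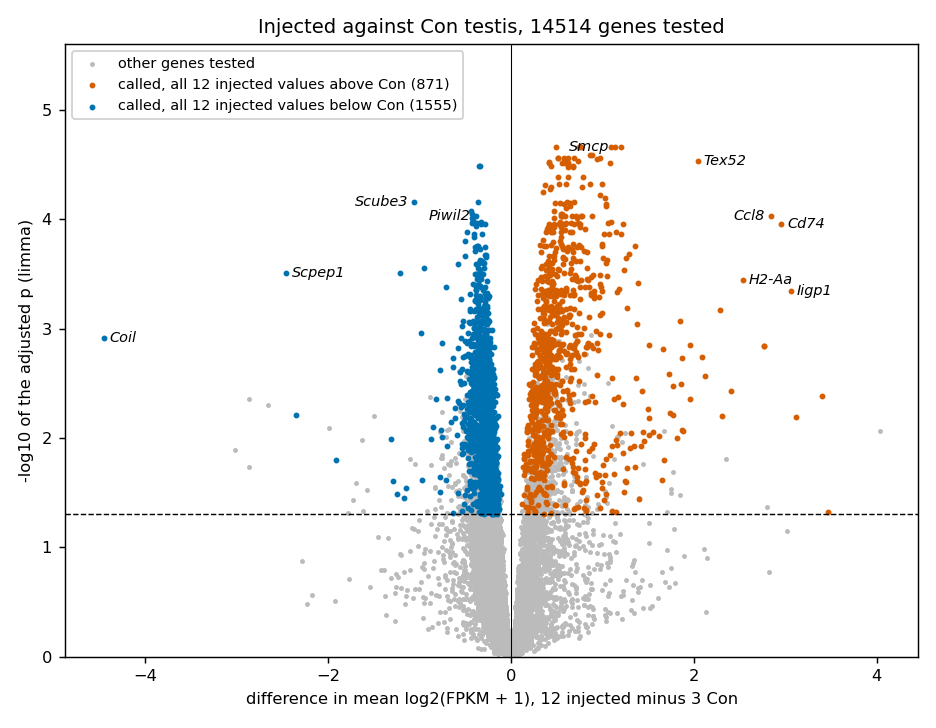
Difference in mean log2(FPKM + 1), 12 injected minus 3 Con libraries (horizontal), against -log10 of the adjusted p of limma (vertical) for the 14514 genes tested, with genes that were called and did not overlap in colour and the dashed line at an adjusted p of 0.05. Of the 871 higher genes 96 lie 1 or more from 0, of the 1555 lower genes 11, and Coil lies furthest to the left.

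Of the 96 genes that rose by 1 or more, 35 belonged to the lists of interferon, antigen presentation, immune cell, chemokine and complement genes, 2 to the lists of spermatids, and 58 to no list. Of all 871 higher genes, 44 belonged to those immune lists and 800 to no list. Some of the 35 could pass the filter only with a higher injected mean, and the lists were chosen with earlier results of these data known. The GTPase gene Iigp1 led the named immune genes. It was at 1.34, 1.04 and 1.06 FPKM in Con, and at 5.59 to 66.9 FPKM (median 19.3) in the injected libraries. Its difference was 3.06 ± 0.47 (SE, limma adjusted p = 0.000454), and the lowest injected library, M1 replicate 3, was still 1.49 log2 units above the highest Con library. Saa3, a serum amyloid protein of inflammation, was at 2.9, 1.1 and 0.09 FPKM in Con, and at 6.22 to 43.1 FPKM (median 11.7), a difference of 2.77 ± 0.51 (SE, limma adjusted p = 0.00144). Ly6a, which encodes the surface protein Sca-1 that interferons induce, was at 4.83, 5.22 and 5.81 FPKM in Con, and at 12.9 to 126 FPKM (median 23.8), a difference of 2.31 ± 0.54 (SE, limma adjusted p = 0.00625). Ly6a has close relatives among the Ly6 genes, between which reads may be shared. No injected value of these 3 genes reached down to Con. In whole tissue, more cells of a kind and more RNA per cell cannot be told apart.

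Class II antigen presentation rose in all 4 groups of injected testes. Of the 5 tested genes of that list, 3 were called, all higher and without overlap, and the median difference was 2.29. Over all genes 9.8% were called higher and 17.5% lower, and the median was -0.0994, and the counts and medians of the other lists are to be read against these values. Cd74 encodes the invariant chain, which guides class II molecules to the compartment where peptides are loaded. It was at 15.4, 8.74 and 9.75 FPKM in Con, and at 45.2 to 174 FPKM (median 88.3), a difference of 2.96 ± 0.37 (SE, limma adjusted p = 0.000111). H2-Aa, an alpha chain, was at 6.26, 1.56 and 2.32 FPKM in Con, and at 13.1 to 64.2 FPKM (median 21.9), a difference of 2.54 ± 0.38 (SE, limma adjusted p = 0.000358). H2-Ab1, its beta chain partner, was at 4.62, 2.13 and 1.89 FPKM in Con, and at 7.79 to 39.2 FPKM (median 16.8), a difference of 2.29 ± 0.38 (SE, limma adjusted p = 0.000683). In all 3 genes Con replicate 1 was the highest Con library, and M1 replicate 3 or M3 replicate 1 the lowest injected one, with no overlap. The loading factor genes did not pass the test, with differences of -0.087 for H2-DMa and 1.01 for H2-DMb1, and both overlapped Con. Ciita, the master regulator of the class II genes, lay under the filter at 0.06, 0.04 and 0.02 FPKM in Con, and at 0.24 to 1.14 FPKM (median 0.53) in the injected libraries, with no overlap and no test. Without any 1 Con library, and with each injected group alone, the same number of genes (3 higher) was called. Read assignment among the histocompatibility genes, which resemble each other and vary between mice, is uncertain.

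Class I presentation rose in part. Of 21 tested genes 9 were called, all higher, 5 of them without overlap, and the median difference was 0.81. B2m, beta-2 microglobulin, the light chain of every class I molecule, was at 53.5, 57.9 and 43.7 FPKM in Con, and at 106 to 364 FPKM (median 187) in the injected libraries. The difference was 1.84 ± 0.31 (SE, limma adjusted p = 0.000861), and the mean of the injected libraries was 3.88 times that of Con. H2-D1, a class I heavy chain, was at 15.1, 14.8 and 13.5 FPKM in Con, and at 28.8 to 129.9 FPKM (median 46.8), a difference of 1.86 ± 0.39 (SE, limma adjusted p = 0.00322). The M5 libraries held the 2 highest H2-D1 values and no injected library overlapped Con. Psmb8, the immunoproteasome subunit that changes how proteins are cut into peptides, was at 0.97, 0.44 and 0.61 FPKM in Con, and at 2.62 to 12.3 FPKM (median 5.17), a difference of 1.95 ± 0.36 (SE, limma adjusted p = 0.00142). With a Con mean under 1 FPKM, Psmb8 could pass the filter only with a higher injected mean. H2-T23, a nonclassical class I molecule read by natural killer cells, was at 3.45, 3.91 and 3.63 FPKM in Con, and at 6.78 to 27.9 FPKM (median 12.2), a difference of 1.51 ± 0.36 (SE, limma adjusted p = 0.00653). Tapbpl, which edits the peptides of class I molecules, differed by 0.49 (limma adjusted p = 0.0407), a call that ended in 13 of 33 alternatives and without any 1 Con library. Without Con replicate 1, 2 or 3 the list had 5, 4 and 4 calls, all higher.

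**Figure D2:**
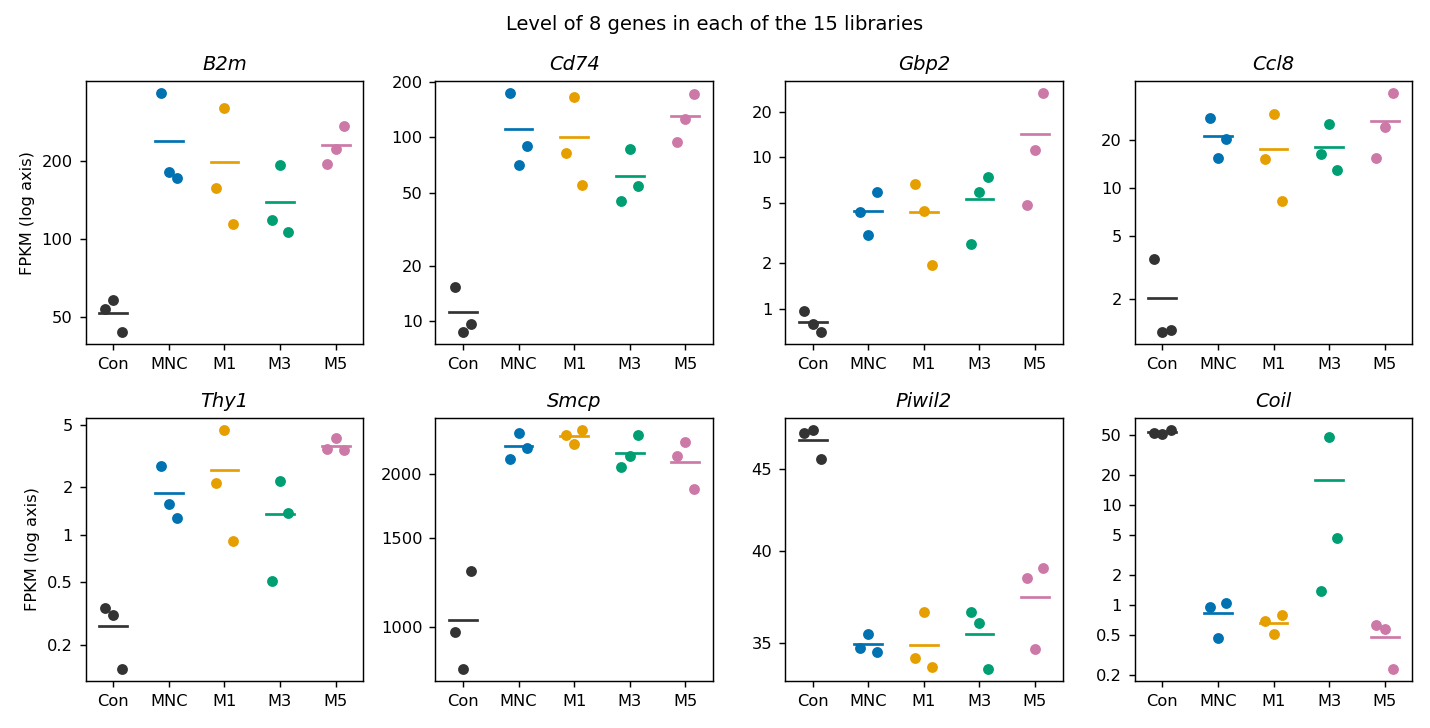
FPKM on a log axis of 8 genes in the 15 libraries (points) with the mean of each group of 3 (lines): B2m and Cd74 of antigen presentation, the GTPase gene Gbp2, the chemokine gene Ccl8, the T cell gene Thy1, the sperm gene Smcp, the piRNA gene Piwil2 and Coil. In each panel all 12 injected values lie on one side of the 3 Con values, and for Coil M3 replicate 2 lies just below Con.

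The interferon-inducible GTPases were the list with the most calls for its size among the interferon and antigen lists. Of 12 tested genes 11 were called, all higher, and 9 did not overlap Con, with a median difference of 1.61. The median was 1.31 for M1, 1.36 for M3, 2.12 for M5 and 1.35 for MNC, each against the same Con libraries. These proteins belong to the guanylate-binding (Gbp) and immunity-related (Irg) families and damage the membranes around intracellular parasites and bacteria. Gbp2 was at 0.97, 0.79 and 0.7 FPKM in Con, and at 1.94 to 26.7 FPKM (median 5.41), a difference of 1.88 ± 0.46 (SE, limma adjusted p = 0.0086). Irgm1, which regulates the other Irg proteins, was at 1.47, 1.55 and 1.8 FPKM in Con, and at 2.63 to 30.3 FPKM (median 7.78), a difference of 1.78 ± 0.41 (SE, limma adjusted p = 0.00622). Igtp was at 0.71, 0.88 and 0.67 FPKM in Con, and at 1.92 to 13.7 FPKM (median 3.88), a difference of 1.49 ± 0.34 (SE, limma adjusted p = 0.00541). M5 replicate 3 held the highest value of all 3 genes and M1 replicate 3 or M3 replicate 1 the lowest, which remained above Con. Gbp4, Gbp6 and Tgtp2 differed by 1.96, 1.73 and 1.73, also without overlap. These 3 genes, Gbp2 and Igtp had Con means under 1 FPKM, so they could pass the filter only with a higher injected mean. The Gbp genes lie in 2 clusters of similar copies and Tgtp2 has a near-identical neighbour, so the reads of single copies are uncertain. Leaving out Con replicate 1, 2 or 3 gave 6, 7 and 6 calls, and without M5 replicate 3 there were 11.

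The promoters of these genes held the letters of an element through which interferons act. The core of the interferon-stimulated response element, GAAA followed by any 2 bases and GAAA again, was searched on both strands of RefSeq promoters (build GRCm38.p6, 250 bases before to 50 after the start of the gene), which were given for 10940 of the genes tested. It occurred in 380 of these (3.47%), and in 8 of the 8 GTPase promoters given, which in part derive from a common ancestor. Among the genes that rose by 1 or more without overlap, 17 of 69 (24.6%) had it, against 5.5% of all higher and 1.94% of all lower genes without overlap. In the interferon response list 9 of 20 had it, in class I presentation 27.8%, and in elongating spermatids none of 16. The following 4 GTPase promoters are shown 5′ to 3′ on the strand of the gene because they carry this element close to the start site, with the element or its reverse complement in capitals.
Igtp, chr11:58199306-58199605, plus strand: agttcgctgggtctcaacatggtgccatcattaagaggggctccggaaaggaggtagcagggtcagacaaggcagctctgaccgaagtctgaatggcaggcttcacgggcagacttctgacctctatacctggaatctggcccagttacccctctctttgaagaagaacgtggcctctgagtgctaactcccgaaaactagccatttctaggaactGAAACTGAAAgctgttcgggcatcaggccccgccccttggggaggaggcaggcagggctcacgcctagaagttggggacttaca
Irgm1, chr11:48871371-48871670, minus strand: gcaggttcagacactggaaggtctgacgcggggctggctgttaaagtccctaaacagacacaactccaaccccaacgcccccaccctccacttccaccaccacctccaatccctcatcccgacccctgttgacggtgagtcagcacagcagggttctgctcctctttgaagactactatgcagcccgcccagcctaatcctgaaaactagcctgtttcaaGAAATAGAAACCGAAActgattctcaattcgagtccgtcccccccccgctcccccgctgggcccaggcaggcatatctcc
Gbp2, chr3:142620413-142620712, plus strand: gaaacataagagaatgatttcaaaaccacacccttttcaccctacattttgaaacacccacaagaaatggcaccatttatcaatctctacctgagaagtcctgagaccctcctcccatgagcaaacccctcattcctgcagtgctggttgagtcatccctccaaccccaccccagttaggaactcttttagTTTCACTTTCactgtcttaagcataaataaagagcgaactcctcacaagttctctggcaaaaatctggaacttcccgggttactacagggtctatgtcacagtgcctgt
Tgtp2, chr11:49064163-49064462, minus strand: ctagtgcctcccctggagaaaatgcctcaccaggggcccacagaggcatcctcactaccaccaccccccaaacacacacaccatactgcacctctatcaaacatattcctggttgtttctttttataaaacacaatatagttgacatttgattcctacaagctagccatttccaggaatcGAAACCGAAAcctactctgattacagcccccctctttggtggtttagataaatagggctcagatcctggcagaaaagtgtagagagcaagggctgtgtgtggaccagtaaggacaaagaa
The first base of the element lay 34 bases before the start site in Igtp, 59 in Gbp2 and 70 in Tgtp2. Irgm1 held 2 overlapping copies, 30 and 24 bases before the start. The chemokine and class I promoters shown next carry it further upstream, and that of H2-Aa carries instead CTGATTGG, the Y box of histocompatibility promoters, which factor NF-Y binds.
B2m, chr2:122147437-122147736, plus strand: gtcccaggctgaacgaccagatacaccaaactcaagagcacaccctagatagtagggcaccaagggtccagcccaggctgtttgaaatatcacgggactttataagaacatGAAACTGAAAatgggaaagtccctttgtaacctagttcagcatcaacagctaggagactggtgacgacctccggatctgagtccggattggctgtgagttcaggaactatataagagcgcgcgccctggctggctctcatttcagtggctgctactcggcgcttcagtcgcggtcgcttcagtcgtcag
H2-T23, chr17:36032652-36032951, minus strand: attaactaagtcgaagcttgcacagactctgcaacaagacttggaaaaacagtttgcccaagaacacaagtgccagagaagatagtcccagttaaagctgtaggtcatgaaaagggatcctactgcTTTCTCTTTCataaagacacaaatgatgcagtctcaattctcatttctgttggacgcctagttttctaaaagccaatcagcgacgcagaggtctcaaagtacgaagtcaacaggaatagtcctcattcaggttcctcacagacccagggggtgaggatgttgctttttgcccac
Cxcl10, chr5:92348840-92349139, minus strand: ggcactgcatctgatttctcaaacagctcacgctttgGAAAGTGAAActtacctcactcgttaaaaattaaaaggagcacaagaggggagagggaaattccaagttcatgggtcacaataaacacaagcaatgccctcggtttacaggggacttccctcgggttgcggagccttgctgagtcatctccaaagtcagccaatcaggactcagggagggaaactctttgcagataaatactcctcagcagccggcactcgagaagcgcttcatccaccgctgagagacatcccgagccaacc
H2-Aa, chr17:34287774-34288073, minus strand: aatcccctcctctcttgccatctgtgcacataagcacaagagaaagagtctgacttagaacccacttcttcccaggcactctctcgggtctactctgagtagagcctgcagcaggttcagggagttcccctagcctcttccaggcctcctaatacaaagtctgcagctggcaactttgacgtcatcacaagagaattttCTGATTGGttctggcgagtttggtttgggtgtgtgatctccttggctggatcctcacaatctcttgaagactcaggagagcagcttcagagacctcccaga
The element began 139 bases before the start in B2m, 124 in H2-T23 and 213 in Cxcl10, and the Y box 51 bases before the start in H2-Aa. CTGATTGG occurred in 6.6% of all promoters and in 6 of 18 of the class I list. TTCNNNGAA, an element of genes that interferon-gamma induces, occurred in 8.43% of all promoters, in 24.6% of those of genes that rose by 1 or more and in 5 of the 8 GTPase promoters. TGACGTCA, the site of the CREB family, was in 3.45% of all promoters and in 3.42% of those of the higher genes. Unmarked in the printed sequences, H2-T23 and Cxcl10 also held CTGATTGG as its reverse complement, H2-Aa held TGACGTCA, and Igtp and Tgtp2 held TTCNNNGAA. Motifs were counted separately even where they overlapped, and a match describes the letters only.

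The classical interferon-stimulated genes moved less than the GTPases. Of 30 tested genes 8 were called, all higher, 5 of them without overlap, with a median difference of 0.43. The list median was 0.24 for M1, 0.19 for M3, 0.71 for M5 and 0.61 for MNC. Zbp1, a sensor of nucleic acids that can trigger cell death, was at 0.76, 0.35 and 0.38 FPKM in Con, and at 1.12 to 9.89 FPKM (median 2.84), a difference of 1.55 ± 0.39 (SE, limma adjusted p = 0.00887). Irf7, the factor that amplifies type I interferon, was at 1.67, 1.36 and 1.39 FPKM in Con, and at 2.05 to 12.1 FPKM (median 4.61), a difference of 1.26 ± 0.38 (SE, limma adjusted p = 0.0254). MNC replicate 1 held the highest Irf7 value and M1 replicate 3 the lowest. Rtp4 and Oas1a differed by 0.91 and 0.75 without overlap. Zbp1 and Oas1a had Con means under 1 FPKM and could pass the filter only with a higher injected mean. The widely used antiviral marker genes Isg15 (0.70, limma adjusted p = 0.0972) and Usp18 (0.43, 0.13) did not pass the test, and the Ifit1, Rsad2 and Oas2 genes lay under the filter. These calls depended on the Con libraries, since the list had 1, 0 and 1 call without Con replicate 1, 2 and 3, while 19 of 30 genes were called higher with M5 alone against Con and 14 with MNC alone. Over all 14514 genes, 1352 were called higher with M5 alone and 1166 with MNC alone.

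The interferon genes and the sensors above them showed little. Ifng was listed at 0 in all 3 Con libraries and at 0.07 to 0.38 FPKM (median 0.21) in the injected libraries, above 0 in each of the 12, while Ifnb1 did not exceed 0.06 FPKM in any library. Both lay under the filter and were not tested. Of 19 tested genes of sensing and interferon signalling, Irf1 was called higher and Irf3 lower. Irf1, a factor that interferon induces and that drives antigen presentation genes, was at 2.23, 2.39 and 1.82 FPKM in Con, and at 2.72 to 23.4 FPKM (median 6.54), a difference of 1.27 ± 0.37 (SE, limma adjusted p = 0.019). Irf3, which the sensors of viral RNA and DNA activate by phosphorylation, was at 21.1, 24.4 and 22.2 FPKM in Con, and at 15.5 to 20.7 FPKM (median 18.6), a difference of -0.29 ± 0.087 (SE, limma adjusted p = 0.0247). Receptor and kinase genes did not pass the test, among them Ifnar1 (-0.19), Ifngr1 (-0.17), Jak1 (-0.24) and Cgas (-0.28). Among 11 tested genes that restrict retroviruses, the membrane protein gene Ifitm3 rose without overlap, from 12.2, 14 and 13.6 FPKM in Con to 15.2 to 65.6 FPKM (median 26.7), a difference of 1.02 ± 0.30 (SE, limma adjusted p = 0.0217). Samhd1, which depletes nucleotides, was called higher by 0.72, and Mov10 and Serinc5 were called lower, with differences of -0.31 and -0.30, all 3 with overlap. The median of the restriction list was 0.29, and 0.11 without Con replicate 1. The calls of Irf1 and Ifitm3 ended without any 1 of the 3 Con libraries, and that of Irf3 after centring and without Con replicate 2 or 3.

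Chemokines that draw T cells and monocytes rose. Of 20 genes 12 passed the filter and were tested. Of these 6 were called, all higher and without overlap, with a median difference of 1. Cxcl9, Cxcl10, Ccl12 and Ccl2 had Con means far below 1 FPKM and could pass only with a higher injected mean. Their direction thus depends on the filter. Ccl8, a monocyte chemokine, was at 3.54, 1.23 and 1.27 FPKM in Con, and at 8.3 to 39.7 FPKM (median 18.4), a difference of 2.84 ± 0.34 (SE, limma adjusted p = 9.39e-05). Cxcl9 and Cxcl10, ligands of the receptor Cxcr3 on activated T cells, were at 0.15, 0.01 and 0.08 FPKM in Con, and at 0.94 to 10.2 FPKM (median 3.78) in the injected libraries for Cxcl9, and at 0.11, 0.04 and 0.08 FPKM in Con, and at 0.61 to 13.6 FPKM (median 3.06) in the injected libraries for Cxcl10. Their differences were 2.09 ± 0.40 (SE, limma adjusted p = 0.00183) and 1.87 ± 0.46 (SE, limma adjusted p = 0.0085). Every injected library exceeded every Con library for both, with M5 replicate 3 the highest. Ccl5, a chemokine that activated T cells also make, was at 1.47, 0.68 and 1.79 FPKM in Con, and at 3.65 to 38.9 FPKM (median 10.6), a difference of 2.41 ± 0.52 (SE, limma adjusted p = 0.00375). Ccl12 and Ccl2 differed by 1.24 and 1.10 (limma adjusted p = 0.025 and 0.0466). Cxcl12, which is made by stromal cells, gave -0.40 and was not called. Leaving out any 1 Con library gave 4 calls, with the calls of Ccl12 and Ccl2 ended in each case, and that of Ccl2 ended in 19 of 33 alternatives.

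Genes of T cells and natural killer cells rose. Of the 21 genes of that list 11 passed the filter and were tested. Of these 9 were called, all higher, 7 of them without overlap, and the median difference was 1.13. Cd3g, Nkg7, Gzma, Gzmb and Thy1 had Con means far below 1 FPKM and could pass only with a higher injected mean. Their direction and the list median therefore depend in part on the filter. Cd3g, a subunit of the T cell receptor complex, was at 0.04, 0.04 and 0 FPKM in Con, and at 0.64 to 3.68 FPKM (median 1.67), a difference of 1.44 ± 0.31 (SE, limma adjusted p = 0.00372). Nkg7, found in the granules of killer cells, was at 0.16, 0 and 0 FPKM in Con, and at 0.98 to 4.68 FPKM (median 2.17), a difference of 1.67 ± 0.31 (SE, limma adjusted p = 0.00153). The granzyme genes Gzma and Gzmb, which encode proteases of those granules, differed by 1.34 and 1.13 (limma adjusted p = 0.0117 and 0.0215). Thy1, a surface protein of T cells, was at 0.34, 0.31 and 0.14 FPKM in Con, and at 0.51 to 4.64 FPKM (median 2.17), a difference of 1.31 ± 0.33 (SE, limma adjusted p = 0.00907). The call of Gzmb ended without any 1 Con library and that of Gzma without Con replicate 2, and the list had 7, 6 and 7 calls without Con replicate 1, 2 and 3. M1 replicate 2 held the highest Cd3g, Nkg7, Gzma and Thy1 values and M1 replicate 3 or M3 replicate 1 the lowest. The defining genes Cd3e, Cd4 and Cd8a lay under the filter, and their 12 injected values were also all above Con, with Cd8a at 0.04, 0.05 and 0.05 FPKM in Con, and at 0.17 to 1.99 FPKM (median 0.865) in the injected libraries. The pan-leukocyte gene Ptprc and the cytokine receptor chain gene Il2rg, picked after their values were seen, differed by 1.15 and 1.37 without overlap. They too had Con means under 1 FPKM and could pass only with a higher injected mean. The summed level of the whole list was 11.8 to 13.7 FPKM in Con and 21.6 to 90.7 in the injected libraries, and Klrk1 and Ncr1 were at 0 in all Con libraries.

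Macrophage genes, which are abundant in the testis, rose in part. Of 21 tested genes 4 were called, all higher and without overlap, with a median difference of 0.56. Aif1, used as a macrophage marker, was at 228, 203 and 257 FPKM in Con, and at 286 to 358 FPKM (median 337), a difference of 0.54 ± 0.067 (SE, limma adjusted p = 0.000106). Con replicate 2 was lowest, replicate 3 the highest Con library and M5 replicate 3 the lowest injected one, the same as for the sperm gene Smcp. Whether the Aif1 RNA came from macrophages or from other cells was not tested. Ctss, a protease that trims the invariant chain, was at 7.77, 7.95 and 7.9 FPKM in Con, and at 9.19 to 56.1 FPKM (median 17.2), a difference of 1.23 ± 0.40 (SE, limma adjusted p = 0.0315). Cybb and C1qb differed by 0.82 and 0.80 (limma adjusted p = 0.0458 and 0.0441), and the calls of Ctss, Cybb and C1qb ended without any 1 Con library. The defining receptor gene Csf1r gave -0.028, and Adgre1, which encodes F4/80, 0.33, and neither passed the test. Without any 1 Con library there was 1 call, and with M5 alone 13 of the 21 were higher, beside 1352 of all 14514 genes. The summed level of the list, to which Aif1 gave the most in Con, was 354 to 383 FPKM in Con and 463 to 816 in the injected libraries. The mean log2(FPKM + 1) of its tested genes, where each gene counts alike, overlapped. It was 2.7 to 2.84 in Con and 2.56 in M3 replicate 1, the lowest injected library. Of 3 tested genes of B and plasma cells, Jchain, the joining chain of secreted antibodies, rose by 1.65 without overlap, while Ms4a1 of B cells lay under the filter and overlapped Con. The call of Jchain ended without any 1 Con library. Its Con mean was under 1 FPKM, so it could pass the filter only with a higher injected mean. Of the neutrophil list 1 gene passed the filter, S100a9, at 0, 0 and 0.09 FPKM in Con, and at 0 to 6.17 FPKM (median 0.405) in the injected libraries, with overlap and no call (limma adjusted p = 0.242). Ly6g, the gene that defines these cells, was at 0 in all Con and at most 0.15 in the injected libraries.

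Complement genes rose at 4 of 12, 3 without overlap, with a median difference of 0.3. Cfb, factor B of the alternative pathway, was at 0.34, 0 and 0.04 FPKM in Con, and at 0.44 to 5.44 FPKM (median 2.03), a difference of 1.45 ± 0.37 (SE, limma adjusted p = 0.0106). The Con mean of Cfb was under 1 FPKM, so the gene could pass the filter only with a higher injected mean. C4b and the inhibitor gene Serping1 differed by 0.68 and 0.94, also without overlap, and C3 by 1.40 with overlap. Without Con replicate 2 none was called, without Con replicate 1 or 3 there were 2, and MNC alone against Con gave none.

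**Figure D3:**
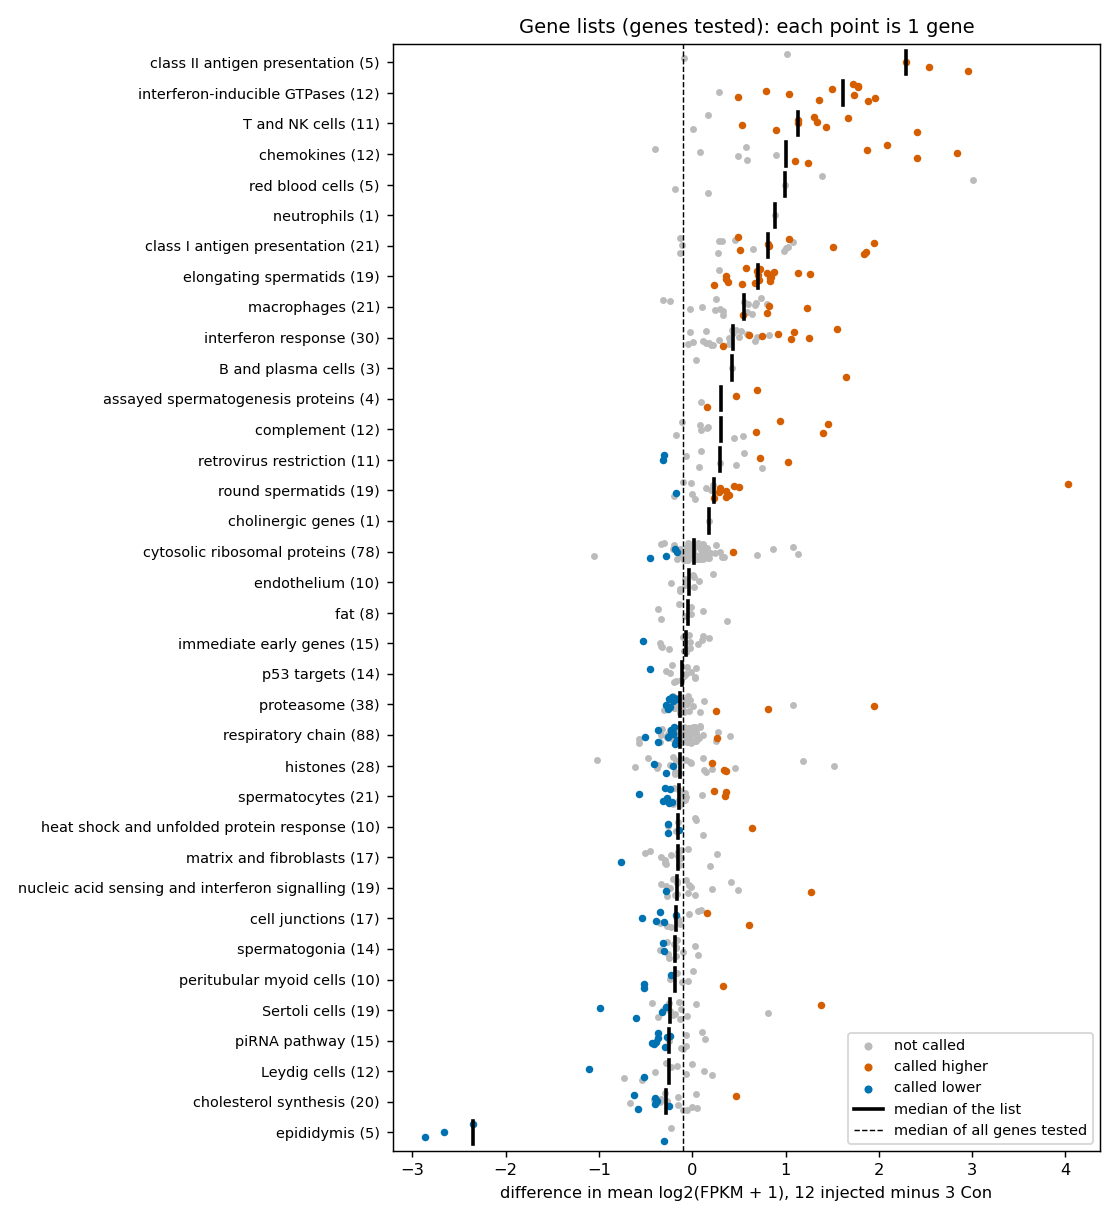
Difference in mean log2(FPKM + 1), 12 injected minus 3 Con libraries, for each tested gene (points) of the 36 lists, with the number of genes tested in brackets, the list median as a black bar and the median of all genes (-0.0994) as a dashed line. Called genes are orange when higher and blue when lower. Class II presentation has the highest median (2.29) and the epididymis list the lowest (-2.35).

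Genes of late germ cells were higher in the injected testes. Elongating spermatids pack their DNA with protamines and build the tail, and 18 of the 19 tested genes of that list were called, all higher, 12 of them without overlap. The median difference was 0.71, with all 19 differences above 0. Prm2, protamine 2, was at 3060.0, 1915 and 4656 FPKM in Con, and at 5486 to 9811 FPKM (median 7080.2), a difference of 1.27 ± 0.21 (SE, limma adjusted p = 0.000653). Smcp, a protein of the mitochondrial sheath of sperm, was at 979.6, 827 and 1292 FPKM in Con, and at 1866 to 2445 FPKM (median 2271), a difference of 1.14 ± 0.10 (SE, limma adjusted p = 2.18e-05). Oaz3 and Spem1, which spermatids use late in their development, differed by 0.84 and 0.87, and Prm3 and the kinase gene Tssk3 by 0.80 and 0.72, all without overlap. In Prm2, Smcp, Oaz3 and Spem1 alike Con replicate 2 was lowest, Con replicate 3 was the highest Con library, and all 12 injected values lay above it. Prm1 and Tnp1, the protamine 1 and transition protein 1 genes, were called higher by 0.71 and 0.69 with overlap, and Tnp2 (0.29) was not called. Without Con replicate 2 the list had 13 calls, and without Con replicate 1 or 3 it had 17 and 18. Each injected group alone gave 16 calls for M1, 12 for M3, 7 for M5 and 10 for MNC. Over all 14514 genes these 4 comparisons gave 4969, 3210, 3143 and 2967 calls, of which 1494, 1017, 1352 and 1166 were higher.

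Round spermatid genes moved the same way by less. Of 19 tested genes 10 were called higher and 1 lower, 6 of the higher ones without overlap, with a median difference of 0.23. Spaca7, an acrosomal protein, was at 80.9, 88.2 and 78.9 FPKM in Con, and at 102 to 142 FPKM (median 113), a difference of 0.50 ± 0.10 (SE, limma adjusted p = 0.00174). Catsper1 and Catsper3, subunits of the calcium channel of sperm, differed by 0.36 and 0.40 (limma adjusted p = 0.00349 and 0.0025). Izumo1, needed for fusion with the egg, differed by 0.29, and the lysozyme-like genes Lyzl1 and Lyzl6 by 0.36 and 0.29. The largest difference on the list belonged to Zp3r, a protein of the acrosomal matrix, which was at 0.34, 0.23 and 0.08 FPKM in Con and ranged widely, at 0.15 to 70.7 FPKM (median 34.3), a difference of 4.03 ± 1.00 (SE, limma adjusted p = 0.00866). Its values overlapped, since M5 replicate 1 was at 0.15 FPKM. With Con values under 1 FPKM, Zp3r could pass the filter only with a higher injected mean. Of the proteins that the study assayed as signs of spermatogenesis, 3 of 4 tested genes were higher. The study reported lower protein levels of TP1, PGK2, CREM and phosphorylated FSCN1 in M5 knockdown testes. That is another measure and another contrast than RNA of all injected libraries, vector control included, against Con. Pgk2, a glycolytic enzyme of late germ cells, rose without overlap from 394, 336 and 443 FPKM in Con to 482 to 628 FPKM (median 523), a difference of 0.47 ± 0.09 (SE, limma adjusted p = 0.00192).

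Genes of earlier germ cells were lower or mixed. The piRNA pathway silences transposons in germ cells through small RNAs bound to PIWI proteins, and 8 of its 15 tested genes were called, all lower and all without overlap, with a median difference of -0.25. Piwil2, which primes the pathway, was at 47.4, 47.6 and 45.7 FPKM in Con, and at 33.7 to 39 FPKM (median 35.1), a difference of -0.39 ± 0.047 (SE, limma adjusted p = 9.39e-05). Mov10l1, the helicase that starts piRNA production, was at 28.9, 30.1 and 29.2 FPKM in Con, and at 20.2 to 23.8 FPKM (median 22.4), a difference of -0.41 ± 0.053 (SE, limma adjusted p = 0.000138). Tdrd9 was at 41.4, 42 and 41.6 FPKM in Con, and at 28.8 to 33.5 FPKM (median 32.4), a difference of -0.37 ± 0.042 (SE, limma adjusted p = 7.03e-05). The spread of Piwil2, Mov10l1 and Tdrd9 within each side was narrow and no library crossed over. Piwil1 and Tdrd1 differed by -0.43 and -0.37, and Henmt1, the enzyme that protects piRNA ends, by -0.30 (limma adjusted p = 0.0376), a call that ended after centring and without any 1 Con library. After centring, the list had 4 calls and a median of -0.14. Leaving out any 1 Con library gave 7 calls, all lower.

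Spermatocyte genes split. Of 21 tested, 3 were called higher and 8 lower, with a median difference of -0.15. Syce2, a central element of the synaptonemal complex, was at 114, 109 and 124 FPKM in Con, and at 129 to 162 FPKM (median 148), a difference of 0.36 ± 0.06 (SE, limma adjusted p = 0.000812). Rec8, the meiotic cohesin, differed by 0.35, also without overlap. Mlh3, which resolves crossovers, and Sycp2, of the lateral element, fell without overlap, with differences of -0.32 and -0.24 (limma adjusted p = 0.00179 and 0.00495). After centring, 1 gene of the list was lower, and Mlh3 and Sycp2 were not called. Of 14 tested spermatogonial genes 2 were called, both lower, and Id4, a marker of stem cells, went from 29.7, 30.6 and 28 FPKM in Con to 20.6 to 26.8 FPKM (median 23.6), a difference of -0.30 ± 0.066 (SE, limma adjusted p = 0.00444). After centring none of this list was called.

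**Figure D4:**
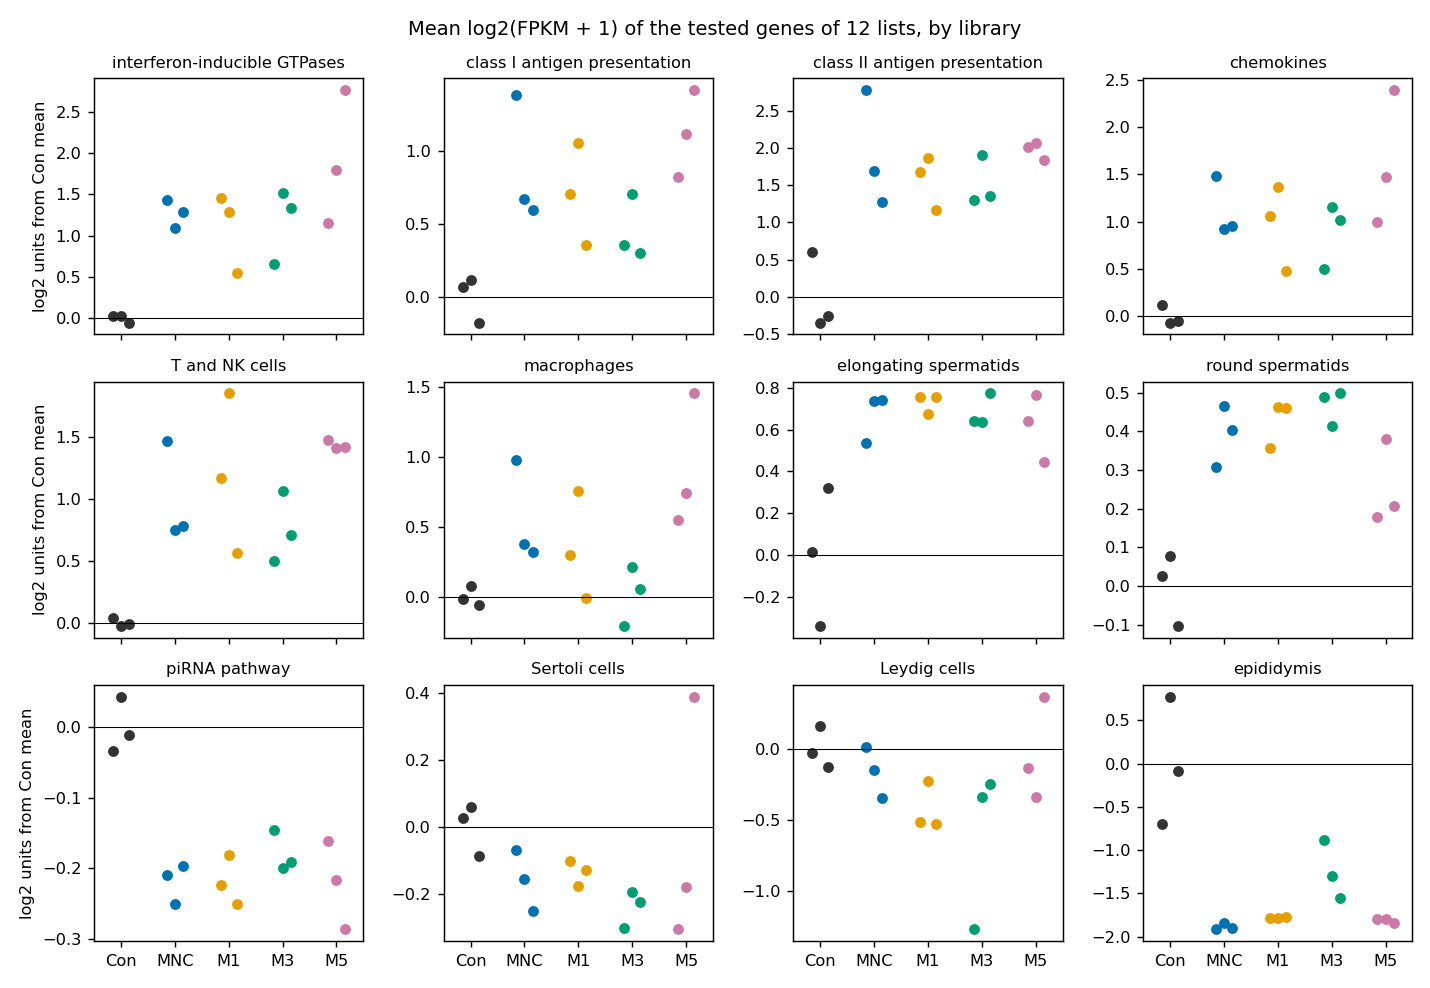
Mean log2(FPKM + 1) of the tested genes of 12 lists in each of the 15 libraries, given as log2 units from the mean of the 3 Con libraries (horizontal line at 0). Interferon-inducible GTPases, class I and class II genes, chemokines, T and NK cells and both spermatid lists lie above Con in all 12 injected libraries and the piRNA pathway and the epididymis below, while macrophages, Sertoli and Leydig cells overlap Con.

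Most calls among the genes of Sertoli, Leydig and peritubular myoid cells were lower, as over all genes (9.8% higher and 17.5% lower). Sertoli cells nurse the germ cells, and of their 19 tested genes 1 was called higher and 4 lower, with a median difference of -0.24. After centring 1 was higher and 1 lower. Inha, the alpha subunit of inhibin, by which the testis restrains follicle-stimulating hormone, was at 101, 103 and 85.5 FPKM in Con, and at 34.3 to 65.9 FPKM (median 49.7), a difference of -0.98 ± 0.17 (SE, limma adjusted p = 0.00111). Ptgds, a prostaglandin D synthase, moved the other way, from 28.6, 27.4 and 28 FPKM in Con to 43.5 to 140.3 FPKM (median 69.8), a difference of 1.38 ± 0.24 (SE, limma adjusted p = 0.000904). Both sides of these 2 genes were clear of each other, and M5 replicate 3 was the injected library with the highest value of both. In the Leydig cells, which make testosterone, 2 of 12 genes were called, both lower and both with overlap. Lhcgr, the receptor of luteinizing hormone, was at 11.4, 12.4 and 8.85 FPKM in Con, and at 1.57 to 9.83 FPKM (median 4.11), a difference of -1.10 ± 0.31 (SE, limma adjusted p = 0.0155), and Fdx1, which passes electrons to the steroid enzymes, differed by -0.52. Without Con replicate 1 or 2 no Leydig gene was called. Of 10 genes of peritubular myoid cells 1 was called higher and 3 lower, with a median difference of -0.19. Acta2 and Cnn1, smooth muscle actin and calponin, fell without overlap, with differences of -0.52 and -0.52 (limma adjusted p = 0.0018 and 0.00503). The summed level of the list was 226 to 254 FPKM in Con and 239 to 277 in the injected libraries.

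Few matrix genes and no vessel genes were called, and junction genes were called in both directions. Of 17 matrix and fibroblast genes, Col4a1, a basement membrane collagen, was called lower with overlap, at a difference of -0.77, and Pdgfra gave -0.50 without passing. None of 10 endothelial genes was called, with Vwf at 0.23 (limma adjusted p = 0.111) and Esam at -0.23 (0.139). Among 17 cell junction genes 2 were called higher and 5 lower, beside 9.8% and 17.5% of all genes. Cldn3, a claudin of the barrier between Sertoli cells, was at 18.7, 12 and 19.5 FPKM in Con, and at 19.8 to 29.9 FPKM (median 25.5), a difference of 0.61 ± 0.13 (SE, limma adjusted p = 0.00368). Con replicate 2 was lowest and replicate 3 the highest Con library, as for Smcp. Gja1, which encodes connexin 43, was at 22.1, 24 and 17.5 FPKM in Con, and at 10.9 to 16.6 FPKM (median 14.3), a difference of -0.54 ± 0.11 (SE, limma adjusted p = 0.00235), and Ctnnd1, a catenin, differed by -0.39, both without overlap. In cholesterol synthesis 6 of 20 genes were lower and 1 higher, with a median difference of -0.29. The enzyme genes Mvk and Sc5d differed by -0.40 and -0.63 without overlap, and Pmvk rose by 0.47 without overlap.

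Epididymal genes were higher in Con. Of 5 tested genes 4 were called, all lower in the injected libraries, with a median difference of -2.35 that is the value of Spag11b and was -1.12 without Con replicate 2. Spag11b, an antimicrobial protein of the epididymis with a close copy beside it, was at 0.07, 27.2 and 3.41 FPKM in Con and was listed at 0 in all 12 injected libraries (limma adjusted p = 0.00624). Gpx5, the secreted epididymal peroxidase, was at 0.27, 43.3 and 4.64 FPKM in Con, and at 0.02 to 0.31 FPKM (median 0.06) in the injected libraries. Crisp1, a secretory protein that coats sperm, was at 32.3, 2.86 and 12.2 FPKM in Con and up to 19.4 FPKM in M3 replicate 1, with 0.03 to 0.15 FPKM in M1, M5 and MNC. Gpx5 and Crisp1 overlapped, and both Gpx5 and Spag11b were low in Con replicate 1. Con replicate 2 was thus highest in Gpx5 and Spag11b and Con replicate 1 in Crisp1. The summed level of the list was 63.3 to 129 FPKM in Con and 24.5 to 56.8 in the injected libraries. The mean log2(FPKM + 1) of its tested genes was 2.48 to 3.94 in Con. It was 2.28, 1.87 and 1.62 in M3 replicates 1, 2 and 3, and 1.26 to 1.4 in M1, M5 and MNC. Con replicate 2 was also lowest for the late spermatid genes, and whether epididymal tissue has a part in other differences was not tested. Aqp9, a water channel, fell by less, a difference of -0.30 ± 0.087 (SE, limma adjusted p = 0.0197), and its call ended after centring and without any 1 Con library. The call of Spag11b ended with each injected group alone.

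Blood and fat markers varied within the injected group. Hbb-bs, a beta globin gene, was at 0, 0.08 and 0.09 FPKM in Con, and at 0.18 to 106 FPKM (median 7) in the injected libraries, with all 12 above Con and no call (difference 3.01 ± 1.19 (SE, limma adjusted p = 0.0715)). Hbb-bt was listed at 0 in all Con libraries and in 4 of the injected ones. The 3 M5 libraries held the 3 highest values of both genes, and the other globin genes overlapped Con. Globin genes are near-identical pairs, so their separate values are uncertain. No fat gene was called, with Adipoq at 0.38 (limma adjusted p = 0.066) and Plin1 at -0.37 (0.227).

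Genes used by all cells moved little. Of 78 cytosolic ribosomal protein genes 1 was called higher and 4 lower, with a median difference of 0.02, and Rpl41 (0.44), Rpl27 (-0.28), Rpl15 (-0.45) and Rps14 (-0.19) did not overlap Con. Of 88 respiratory chain genes 13 were lower and 1 higher, with a median of -0.13. Ndufa11b (-0.50), Ndufb10 (-0.22), Ndufa9 (-0.21) and Uqcrc2 (-0.19) and the assembly factor gene Ndufaf7 (-0.20) fell without overlap, and after centring 2 of the list were lower and 2 higher. The calls of Rpl15, Rpl41 and Ndufaf7 ended without any 1 Con library. Of 38 proteasome genes 8 were lower and 3 higher. Beside Psmb8, Psma6 rose by 0.25, and Psmc1 (-0.28), Psmd3 (-0.25), Psmd4 (-0.19) and Psmd2 (-0.16) fell, all without overlap, and after centring 3 of the list were higher and 2 lower. Of 28 histone genes 3 were higher and 3 lower, and H2bc21 (-0.41) and H2az1 (-0.20) fell without overlap, with reads that near-identical histone copies may share. Both calls ended after centring and without any 1 Con library, and that of H2az1 in 21 of 34 alternatives.

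Stress genes gave single calls. Herpud1, which the unfolded protein response induces, was at 63.2, 43.4 and 78.8 FPKM in Con, and at 81 to 106 FPKM (median 94.7), a difference of 0.65 ± 0.12 (SE, limma adjusted p = 0.00142). As for the sperm gene Smcp, Con replicate 2 was lowest, replicate 3 the highest Con library and M5 replicate 3 the lowest injected one. Which cells the Herpud1 RNA came from was not tested. Dnajb1, a heat shock chaperone, differed by -0.14 (limma adjusted p = 0.0354) without overlap, and 3 of 10 genes of that list were lower and 1 higher. Of 14 targets of p53 1 was called, Sesn2, a regulator of growth under stress, which differed by -0.46. Of 15 immediate early genes 1 was called, Jund (-0.53, with overlap). The calls of Dnajb1, Sesn2 and Jund ended without any 1 Con library, and those of Dnajb1 and Jund after centring. Gadd45b gave -0.33 without passing. Of the acetylcholine genes 1 passed the filter, Chrm4, with 0.17 and no call.

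The largest falls did not belong to a list of immune or testis cells. Coil encodes coilin, the scaffold of the Cajal bodies of the nucleus. It was at 53.2, 51.1 and 56.9 FPKM in Con. In the injected libraries it was at 0.7, 0.52 and 0.79 FPKM in M1, 1.4, 47.6 and 4.73 in M3, 0.64, 0.58 and 0.23 in M5, and 0.96, 0.47 and 1.06 in MNC. M3 replicate 2 thus lay just below Con while the other 11 libraries lay far below. The difference was -4.45 ± 0.79 (SE, limma adjusted p = 0.00121). Scpep1, a serine carboxypeptidase gene next to Coil, was at 7.1, 8.25 and 6.37 FPKM in Con, and at 5.06 FPKM in M3 replicate 2, and at 0.17 to 0.67 FPKM in the other 11 injected libraries (difference -2.46 ± 0.36 (SE, limma adjusted p = 0.000314)). The call of both genes ended with M3 alone against Con (limma adjusted p = 0.092 for Coil and 0.056 for Scpep1).

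The genes that follow Coil gave the same order of libraries, which was noticed after the values were seen. Scpep1 (chromosome 11, 88924020 to 88955442, GRCm38), Coil (88973935 to 88991613), Trim25 (88999403 to 89020294), Dgke (89035179 to 89060795) and Gm525 (89073841 to 89093064) follow each other. Trim25 encodes a ubiquitin ligase of antiviral RNA sensing, and it was at 1.96 to 2.36 FPKM in Con, 1.43 in M3 replicate 2 and 0 to 0.14 in the other 11 injected libraries. Dgke, a lipid kinase, was at 1.66 to 1.68 FPKM in Con, 1.16 in M3 replicate 2 and 0.02 to 0.14 in the others. Gm525 was at 0.82 to 1.48 FPKM in Con, 1.03 in M3 replicate 2 and 0 in the others. These 3 genes lay under the filter because of their low level in the injected libraries and were not tested. Farther along, Nog was at 0.06 FPKM or less in every library, and Ankfn1 was at 0.53 to 0.79 FPKM in Con, 0.71 in M3 replicate 2 and 0.11 to 0.39 in the others. On the near side Akap1 did not share the pattern, at 1.85 to 2.79 FPKM in Con and 2.27 to 3.68 in the injected libraries (limma adjusted p = 0.0469, higher), and Msi2 was higher in all 12 (difference 0.75 ± 0.1 SE, limma adjusted p = 0.000172). The cause of the pattern was not tested.

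**Figure D5:**
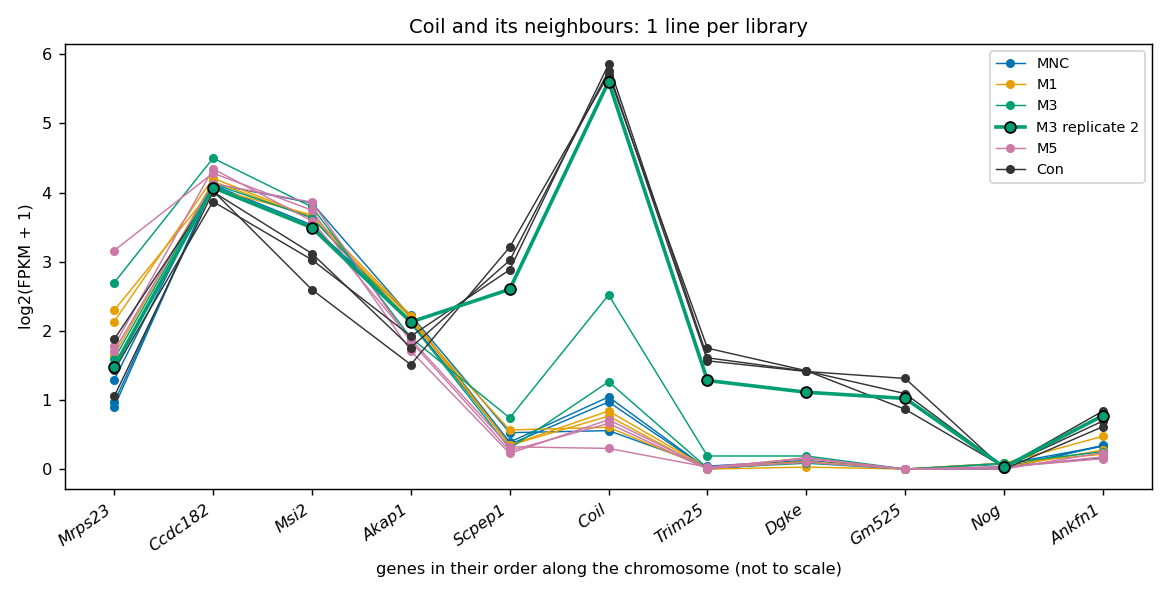
log2(FPKM + 1) of Coil and of the 5 measured genes on either side of it, in their order along the chromosome and not to scale, with 1 line per library. From Scpep1 to Gm525, and at Ankfn1, the 3 Con libraries and M3 replicate 2 lie above the other 11 injected libraries, and at Akap1 and Nog they do not.

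Some genes were found on 1 side only or nearly so. Tex52, a testis-expressed gene, was listed at 0 in all 3 Con libraries and at 1.56 to 5.11 FPKM (median 3.2) in the injected libraries (limma adjusted p = 2.96e-05). 1700034J05Rik, the largest rise without overlap of a gene with a symbol, was at 2.73, 2.55 and 2.04 FPKM in Con, and at 6.01 to 94.9 FPKM (median 39.4), a difference of 3.12 ± 0.73 (SE, limma adjusted p = 0.0065). Its injected values spread widely, with M1 replicate 3 lowest and MNC replicate 1 highest. Of IDs without a symbol, BGI_novel_G000367 was at 0 in all Con libraries and at 1.63 to 36.4 FPKM (median 8.41) in the injected libraries, and BGI_novel_G001925 fell from 9.1, 8.91 and 8.92 FPKM in Con to 0 to 5.75 FPKM (median 2.58) in the injected libraries. BGI_novel_G002171, at 0, 0.1 and 0 FPKM in Con, and at 0.2 to 82.4 FPKM (median 8.43) in the injected libraries, passed narrowly (limma adjusted p = 0.048), a call that ended in 21 of 33 alternatives, and BGI_novel_G001086 was lower without overlap (-0.70, 0.0117). Tex52, BGI_novel_G000367 and BGI_novel_G002171 had Con means under 1 FPKM and could pass the filter only with a higher injected mean.

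Among the remaining large falls, Mt3, a metallothionein gene, was at 5.53, 7.4 and 5.85 FPKM in Con, and at 0.52 to 4.04 FPKM (median 2.02), a difference of -1.31 ± 0.33 (SE, limma adjusted p = 0.0102). Scube3, a secreted signalling protein gene, was at 4.46, 3.47 and 3.96 FPKM in Con, and at 0.78 to 1.83 FPKM (median 1.4), a difference of -1.06 ± 0.12 (SE, limma adjusted p = 7.03e-05). Its lowest Con value lay 0.659 log2 units above its highest injected value, the widest such distance among the lower genes. Wfdc1, a protease inhibitor gene, was at 17.9, 15.6 and 13 FPKM in Con, and at 3.75 to 9.99 FPKM (median 6.25), a difference of -1.22 ± 0.18 (SE, limma adjusted p = 0.000314). None of these 3 genes had an injected value inside the Con range. Myh6, a cardiac myosin heavy chain gene, and Cstdc2, of the cystatin family, differed by -1.15 and -1.29 (limma adjusted p = 0.0285 and 0.0248), and both calls ended without any 1 Con library and without the M1 group. Gm3411, Gm8127, Gm3594 and 2610042L04Rik belong to a repeated family on chromosome 14 and fell by 1.24, 1.17, 0.97 and 0.78 on the log2 scale, with reads that similar copies may share. The calls of Gm3411, Gm8127 and Gm3594 ended without any 1 Con library and after centring.

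Neighbouring genes rose together at 7 places and fell together at 1, when runs of adjacent tested genes that were called without overlap and differed by 1 or more were counted, a count added after the values were seen. The longest run held Gbp7, Gbp3, Gbp2b and Gbp2 on chromosome 3. The others with named immune genes were Gm12250 and Igtp, Ccl12 and Ccl8, H2-Ab1 and H2-Aa, and the chemokine receptor genes Cxcr6 and Ccr2. The protease inhibitor genes Serpina3f and Serpina3g differed by 1.87 and 1.77, and the calcium-binding genes S100a4 and S100a6 by 1.82 and 1.02. Several genes of these runs, among them Serpina3f, Serpina3g and S100a4, had Con means under 1 FPKM. They could pass the filter only with a higher injected mean. Scpep1 and Coil made the run that fell.

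Few genes passed a test among the 4 injected groups after adjustment. A limma F-test over M1, M3, M5 and MNC, which does not use Con, called 3 genes (0.0207%) and 3433 at an unadjusted p under 0.05. None of the 2426 genes that were called and did not overlap Con was among the 3. This says little, since 3 genes are few and the rule favours genes whose injected values lie together. At an unadjusted p under 0.05 there were 196 of the 871 higher and 229 of the 1555 lower ones, beside 3433 of all 14514 genes tested. The 3 genes were Cd5l, which resident macrophages secrete and which was at 0.06 to 0.2 FPKM in M3 against 2.55 to 4.89 in the other injected libraries (limma adjusted p = 0.000876), Gng10 (0.0315) and BGI_novel_G001233 (0.0103). This count was unstable, with 1356 genes without M3 replicate 3, 73 without MNC replicate 2, 32 without M3 replicate 1 and 361 when a mean of 5 FPKM was required. Each injected group alone against Con gave 4969 calls for M1, 3210 for M3, 3143 for M5 and 2967 for the vector control MNC. Within MNC alone 11 of the 12 GTPase genes, 3 of the 5 class II genes, 8 of the 11 T and NK cell genes and 10 of the 19 elongating spermatid genes were called higher. Over all 14514 genes MNC alone called 1166 higher. Several GTPase and T and NK cell genes could pass the filter only with a higher injected mean. These 4 comparisons share the same 3 Con libraries.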

How the data were processed

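Poly(A) RNA of 15 testis libraries (5 groups of 3) was sequenced by the authors, who aligned reads with SOAPaligner and deposited 1 table of FPKM values per gene and library, while the methods call them RPKM. The submitters' processing notes name the build mm10. Columns were matched to samples by title, because 1 sample description (M5 replicate 2) points to the wrong column. No column belonged to another sample. No counts were used, so depth is unknown, and the relative steps could not show large differences in it.

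Genes averaging at least 1 FPKM over the libraries were tested on log2(FPKM + 1) with limma 3.58.1 in R 4.3.3 (moderated test with an intensity trend), 12 injected against 3 Con in 1 fit of 2 groups, with Benjamini-Hochberg adjustment. Lists were described by counts and medians without a set test. Promoters came from RefSeq, and 89.9% of the IDs matched it by gene ID. In simulated data with 200 genes changed by 1 log2 unit among 14514, the fit of 12 against 3 found 92.8%, 5.02% of its calls fell on unchanged genes, and no gene was called when none was changed. The simulated noise was independent between genes and alike in all libraries, so shifts of whole libraries and uneven libraries were not covered.

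The comparison, its members, the 36 lists and the promoter element were chosen with earlier results of these data known. The rule named, of genes with a symbol that were called without overlap, the 12 largest rises and falls, the 5 widest distances on each side and up to 6 per list (where a list had none, 2 by lowest p), up to 2 IDs without a symbol in each direction, and Chrm1, Chrm3 and Chrm5. Other genes in the text were picked after their values were seen, as were the motifs TTCNNNGAA, CTGATTGG and TGACGTCA, the calls of each list under each setting, and the genes around Coil. The alternatives were another pseudocount, filter, scaling, GC trend, variance model, sample weights, replicate block, grouping and threshold, and leaving out each library or group.

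A few genes named by this rule are not reported here.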

Additional observations from a re-analysis of the deposited data

Results flagged for a closer look

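Chrm4, the muscarinic receptor gene M4, was the acetylcholine gene that passed the filter, and its injected groups went opposite ways from Con. It was at 2.75 to 3.09 FPKM in Con, at 2.05 to 2.29 FPKM in the 3 M5 libraries, all below Con, and at 4.45 to 5.1 FPKM in the 3 MNC libraries, all above Con. Its difference over the 12 injected libraries was 0.175 and was not called by limma. The difference between M5 and MNC was not tested on its own, and the limma F-test over the 4 injected groups gave an adjusted p of 0.057.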

How the results depend on the processing

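The same-numbered libraries of different groups did not vary together, since 5 of 30 pairs had a correlation of deviations over 0.1 (range -0.399 to 0.193, median 0.00721), so replicate numbers were not taken as pairs. With the replicate number as a block, 3421 genes were called instead of 3962, among them 847 of the 871 higher and 1455 of the 1555 lower genes, and 1 gene among the injected groups.

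The number of genes called between injected and Con libraries was 2440 after centring, 9077 with sample weights and 37 at the study's threshold (34 higher), and 1836 to 5505 when 1 library was left out. The low end lacked Con replicate 2. Genes on one side of Con numbered 43 when the sides had to lie 0.5 log2 units apart, 1798 after centring (1227 above) and 2618 to 3657 when 1 library was left out. Among the 4 injected groups 3 genes were called, against 6 with a pseudocount of 0.1, 5 with a filter of 0.1 FPKM, 361 with a filter of 5 FPKM, 8 without a filter, 9 after quantile normalization, 2039 with sample weights, and 1 to 1356 when 1 library was left out. The causes were not tested.

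Leaving out 1 library turned the sign of 3 differences of the targeted genes, which ranged from -0.00876 to 0.0236 for Chrm1 in M1 against MNC, from -0.00248 to 0.00991 for Chrm3 in all injected against Con and from -0.118 to 0.0106 for Chrm5 in M5 against MNC. The median of the endothelial list (-0.032) became 0.0733 after centring, 0.0083 after quantile normalization and 0.0222 without the GC trend, and that of the fat list (-0.044) 0.0611, 0.00487 and 0.00875, with -0.507 to 0.303 when 1 library was left out. That of the immediate early genes became 0.0344 after centring and 0.00605 after quantile normalization, and that of the ribosomal genes -0.0746 after quantile normalization, with -0.00866 to 0.0353 when 1 library was left out. With a pseudocount of 0.1 the median of the T and NK cell list was 2.58, of chemokines 2.36 and of the epididymis -4.61. Chrm4 gave -0.294 with M5 alone against Con. Of the 122 named genes that were called, 44 stayed called under each alternative in which they were tested, 29 lost the call after centring, and 37, 47 and 35 lost it without Con replicate 1, 2 and 3, among them 33 in all 3 cases.

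FPKM values carry no counts, so counting error could not be given, and genes near 0 in one group are limited by the depth. With 3 Con libraries, leaving out 1 of them gave fewer calls than leaving out any 1 injected library.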
